A study of Mus musculus with 6 samples.

Results

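The AP-1 and Egr immediate early factors are 10 genes of the deposited table, taken by gene name: Fos, Fosb, Fosl1 and Fosl2 of the Fos family, Jun, Junb and Jund of the Jun family, and Egr1, Egr2 and Egr3 of the Egr family. They were 10 of 54532 genes in the table, and all 10 were among the 16606 genes with enough reads to be tested. RNA had been sequenced from primary neurospheres, free-floating colonies of neural progenitor cells, of C57BL/6 mouse embryos at E14.5, mid-gestation. One group was WT and the other a conditional knockout of Ash2l driven by D6-Cre (Ash2l cKO, called KO here), a Cre transgene active in the dorsal forebrain, so that recombination depends on where that transgene is on. ASH2L is a subunit shared by the COMPASS complexes, which methylate lysine 4 of histone H3. All spheres were collected on day 6 of culture in serum-free medium with EGF, bFGF, B27 and BSA, so both groups were under growth factor stimulation. The WT libraries carry the numbers 3, 6 and 7 and the KO libraries the numbers 1, 2 and 3. Whether the 3 libraries of a genotype stem from different embryos or from different dishes is not stated, so p-values here reflect only how far these libraries scatter, which could include technical scatter.

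Immediate early genes are transcribed within minutes of a stimulus such as a growth factor or neuronal activity, without the need for new protein synthesis, and their mRNAs are short-lived. Proteins of the Fos family must pair with a Jun protein to bind DNA, Jun proteins can also pair with one another, and the resulting dimers are called AP-1. Egr proteins are zinc finger factors that bind GC-rich sites, and in the nervous system Egr1 and Egr3 are widely used as reporters of recent signalling.

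Library totals ran from 16764480 to 21983659 counts, at which 3 reads correspond to 0.136 to 0.179 CPM (counts relative to the library total, scaled by TMM factors of 0.961 to 1.04). Every library held between 78 and 18363 reads for each of the 10 genes, so low depth did not limit their detection. Ash2l itself had 113 ± 3.55 CPM in the WT libraries against 95.9 ± 8.41 CPM in the KO libraries (SD, n = 3 each), and its log2 fold change was -0.24 with an adjusted p of 0.119 in edgeR's quasi-likelihood test. The neural progenitor markers, summed, ran from 3765 to 5056 CPM in WT and from 3579 to 5611 CPM in KO, mostly from Vim and Fabp7, which were not called. Of the 8 markers, Sox2, Pax6, Hes5 and Prom1 fell in KO, by 1.01 (Prom1) to 2.97 (Hes5) on the log2 scale, and Nes rose by 2.21 (edgeR, adjusted p from 0.000999 to 0.0260). Their part in the results on AP-1 and Egr genes was not tested. In bulk RNA a smaller share of cells of one type and less RNA per cell cannot be told apart. WT 3 stood apart from the other WT libraries in its astrocyte markers, whose sum was 2457 CPM against 7196 and 7970 CPM in WT 6 and WT 7. Results that rest on WT 3 are given below without it as well.

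Measured per length, the members covered a wide range of levels, from 0.802 to 195 FPKM. Fos was the highest in WT, at 103 ± 26.0 FPKM (SD, n = 3), followed by Egr1 at 74.5 ± 35.7 and Jun at 68.9 ± 13 FPKM. Fos was above both Egr1 and Jun in every WT library, while Egr1 was above Jun in WT 3 only, so the order of these last 2 in WT is within the spread. Jund at 45.3 ± 4.31 FPKM was below Jun in every WT library, and Junb at 20.7 ± 7.41 FPKM was below Jund in every WT library. The other 5 genes lay far lower: Egr2 averaged 4.60 FPKM, Fosb 4.20, Fosl2 3.70, Fosl1 3.31 and Egr3 1.17. The order in KO was different. Egr1 came first at 150 ± 39.4 FPKM and was above Jun, at 75.1 ± 20.7 FPKM, and above Fos, at 65.2 ± 12.8 FPKM, in each KO library. Jund averaged 43.7 FPKM and Junb 22.3 FPKM, close to their WT levels. Fosl2 stood at rank 8 of the 10 in WT and at rank 6 in KO, with 10.4 FPKM, and Egr3 at rank 10 in WT and rank 8 in KO, with 7.55 FPKM. Egr2 took the last place in KO with 3.47 FPKM. The ranks of these low genes are of group means and shift between libraries. Fosb ran from 0.802 to 8.23 FPKM in WT, and in KO 3 it was above Fosl2, at 12.8 against 11.5 FPKM.

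**Figure D1:**
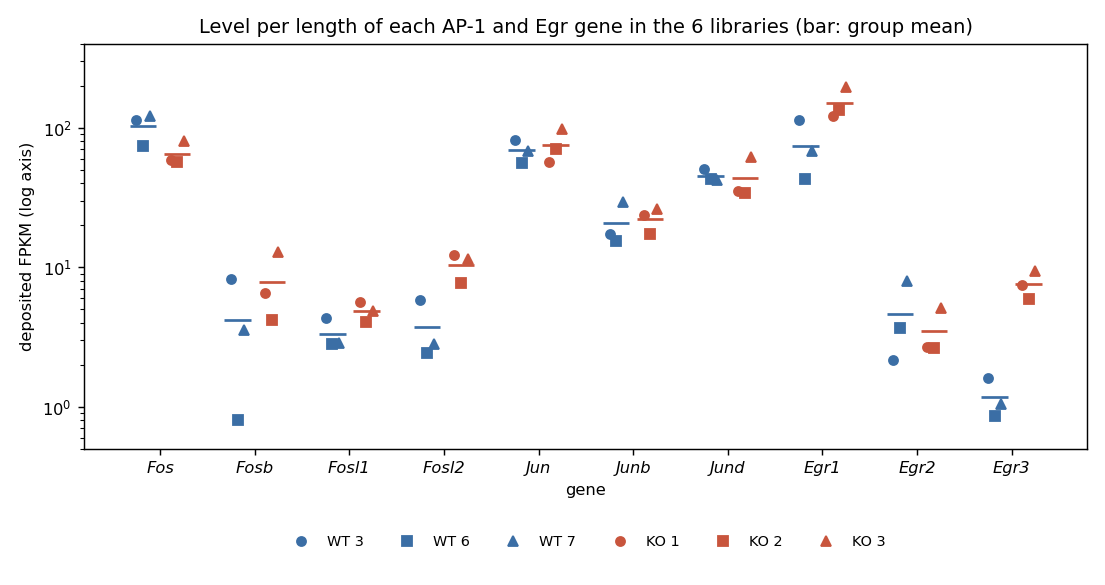
Deposited FPKM (log axis) of the 10 genes in each of the 6 libraries, WT in blue and KO in red, with a bar at each group mean. Egr3 and Fosl2 had KO points above every WT point, from 5.87 to 9.37 against 0.853 to 1.61 FPKM for Egr3, while the Jun family points of both groups overlapped.

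Of the 10 genes, Egr3 and Fosl2 rose in KO, Fos fell, and 7 did not pass the test (edgeR's quasi-likelihood test, adjusted p under 0.05 over all genes tested). The background is high in this comparison: 29% of all tested genes were called, 13.5% as higher and 15.5% as lower in KO. The 3 of 10 members called are therefore close to the share of all genes. The groups did not overlap for 3 members, Fosl2, Egr1 and Egr3, each with KO above WT, beside 48.6% of all tested genes. Of all tested genes, 23.5% had every KO library above and 25.2% every KO library below the WT libraries. The median log2 fold change of the members was 0.28, against 0.0019 for all tested genes.

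**Figure D2:**
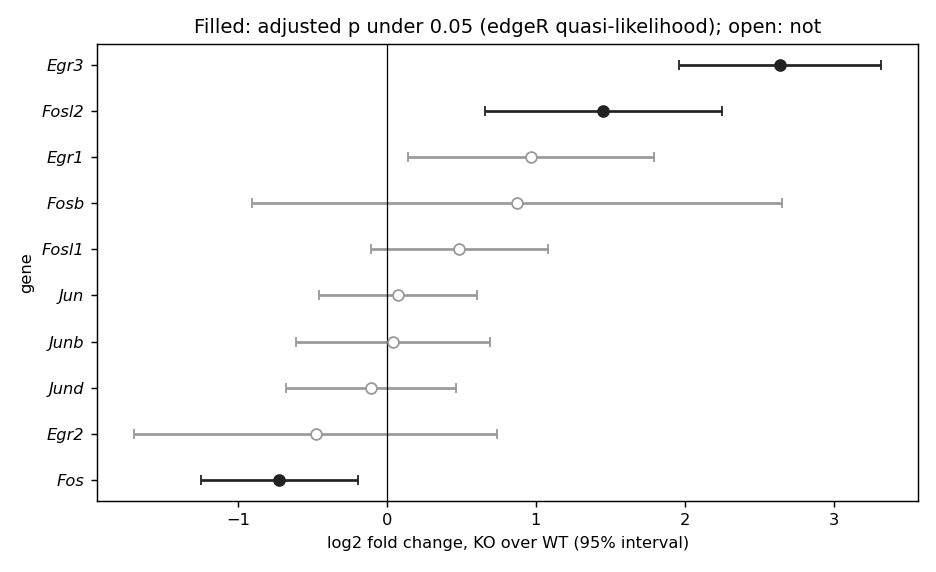
Log2 fold change of KO over WT for each gene, with its 95% interval from the edgeR fit, filled where the adjusted p was under 0.05. Egr3 at 2.64 and Fosl2 at 1.45 lie to the right of 0 and Fos at -0.72 to the left, and the interval of Egr1 excludes 0 although its adjusted p was 0.0771.

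The Fos family supplies the partner that makes an AP-1 dimer strongly activating (Fos, Fosb) or weaker and longer lasting (Fosl1, Fosl2, also called Fra-1 and Fra-2). Fos, the founding member, lies on chromosome 12 from 85473890 to 85477273 on the forward strand (mm10). The WT libraries had 266 CPM (WT 3), 181 CPM (WT 6) and 298 CPM (WT 7), the KO libraries 133 CPM (KO 1), 132 CPM (KO 2) and 187 CPM (KO 3). KO 3 was slightly above WT 6, so the groups overlapped, while the other 2 KO libraries were below every WT library. The mean level was 248 ± 60.7 CPM in WT libraries and 151 ± 31.3 CPM in KO libraries (SD, n = 3 each). The log2 fold change was -0.72 with an SE of 0.22 and an adjusted p of 0.0497 in edgeR's quasi-likelihood test, at the edge of the threshold. The call was lost when WT 3 (adjusted p = 0.0659), WT 7 (0.144), KO 1 (0.146) or KO 2 (0.152) was left out in edgeR. It was also lost with library totals in place of TMM (0.0647), with limma-voom (0.0585) and with limma on the FPKM (0.0710 and 0.0724 with pseudocounts of 1 and 0.1), while the direction held throughout.

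Fosl2, whose product lacks the strong activation domain of Fos, lies on chromosome 5 from 32135801 to 32157842 on the forward strand. It was at 55.6 CPM in WT 3, 24.5 in WT 6 and 28.6 in WT 7, and at 114 CPM in KO 1, 72.8 in KO 2 and 110 in KO 3. Every KO library was above every WT library, and WT 3 was the highest of the WT libraries. The mean rose from 36.2 ± 16.9 CPM to 99.1 ± 22.9 CPM (SD, n = 3 each), a 2.74-fold difference with a 95% interval of 1.58 to 4.75 and an adjusted p of 0.0201 in edgeR. The adjusted p in edgeR was 0.0640 without WT 6, 0.0703 without WT 7 and 0.0606 without KO 1, so the call was lost in each, with log2 fold changes of 1.23, 1.30 and 1.36. Without WT 3 the log2 fold change was 1.90 with an adjusted p of 0.000916 in edgeR.

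Fosb, a strong activator like Fos with a truncated splice form known from chronic stimulation, was the most variable member. Its WT libraries were at 50.7 CPM in WT 3, 5.22 in WT 6 and 23.2 in WT 7, and its KO libraries at 39.1 CPM in KO 1, 25.8 in KO 2 and 79.6 in KO 3. WT 3 lay above 2 of the KO libraries and WT 6 was 9.70 times below WT 3. The spread within groups, 1.30 on the log2 scale, was above that of 98.5% of tested genes. The log2 fold change of 0.87 ± 0.75 (SE) had an interval from 0.534-fold to 6.28-fold and did not pass (adjusted p = 0.400 in edgeR). Without WT 3 the log2 fold change was 1.76 with an adjusted p of 0.0784 in edgeR, and limma-voom with quality weights on all 6 libraries gave 1.93 with an adjusted p of 0.0419. Fosl1, which is usually low in neural cells and induced by sustained ERK activity, was at 7.24 CPM in WT 3, 4.97 in WT 6 and 5.07 in WT 7 and at 9.28 CPM in KO 1, 6.75 in KO 2 and 8.18 in KO 3. KO 2 was the one KO library below the highest WT library. The fold change of 1.40 had an interval of 0.928 to 2.12 and an adjusted p of 0.180 in edgeR.

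The makeup of the Fos family pool, as FPKM, differed between the groups. Fos supplied 90.5 ± 3.75% of the family's FPKM in WT and 74.1 ± 3.84% in KO (SD, n = 3 each). Its share was 86.2, 92.4 and 92.9% in WT 3, WT 6 and WT 7 but 70.7, 78.2 and 73.3% in KO 1, KO 2 and KO 3, without overlap. Fosl2 supplied 3.19 ± 1.11% in WT and 11.9 ± 2.43% in KO, Fosb 3.30 ± 2.63% and 8.45 ± 3.05%, and Fosl1 2.97 ± 0.70% and 5.58 ± 1.18%. The family total was 115 ± 30.2 FPKM in WT and 88.3 ± 18.6 FPKM in KO, with libraries of both groups overlapping. An exact permutation test of 3 against 3 libraries cannot go below p = 0.1, so no such share was tested.

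The upstream sequences of the called Fos family genes and of Fosb are shown to set the known promoter elements of this family beside these levels. They run from 250 bases before to 50 bases after the RefSeq transcript start (GRCm38.p6), 5′ to 3′ on the gene's strand, with capitals for any match to the motifs named next. One is TATAAA, which positions the polymerase. The cyclic AMP response element was searched as its core TGACG and in full as TGACGTCA, and the AP-1 element as TGAGTCA. A variant of TGACGTCA, TGACATCA, was searched as well. Sites of Egr factors were searched as GCGGGGGCG and as GCGTGGGCG, and SRF sites as the CArG box. The windows are chr12:85473640-85473939 (forward strand) for Fos, chr7:19309996-19310295 (reverse strand) for Fosb and chr5:32136222-32136521 (forward strand) for Fosl2.
Fos: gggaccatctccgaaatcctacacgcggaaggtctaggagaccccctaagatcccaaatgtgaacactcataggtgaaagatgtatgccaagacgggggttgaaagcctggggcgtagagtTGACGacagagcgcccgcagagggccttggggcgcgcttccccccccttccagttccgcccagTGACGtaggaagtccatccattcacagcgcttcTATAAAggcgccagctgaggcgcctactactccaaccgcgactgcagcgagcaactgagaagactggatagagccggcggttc
Fosb: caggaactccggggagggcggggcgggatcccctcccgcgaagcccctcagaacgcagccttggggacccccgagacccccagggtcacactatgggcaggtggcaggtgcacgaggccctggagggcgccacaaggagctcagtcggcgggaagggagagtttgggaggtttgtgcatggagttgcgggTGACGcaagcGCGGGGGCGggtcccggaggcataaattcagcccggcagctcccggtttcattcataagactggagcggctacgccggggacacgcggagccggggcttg
Fosl2: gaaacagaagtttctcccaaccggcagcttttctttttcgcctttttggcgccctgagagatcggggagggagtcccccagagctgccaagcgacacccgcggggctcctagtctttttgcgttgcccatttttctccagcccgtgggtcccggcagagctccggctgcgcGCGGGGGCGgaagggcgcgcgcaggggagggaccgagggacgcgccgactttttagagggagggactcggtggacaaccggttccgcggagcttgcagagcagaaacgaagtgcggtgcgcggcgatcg
Windows were found for Fos, Fosb, Fosl2, Jun, Junb, Jund and Egr2, and not for Fosl1, Egr1 and Egr3. Both strands were searched. Counted from the start, the Fos window held TATAAA at -33 to -28 and TGACG at -66 to -62 and at -129 to -125. TATAAA occurs in 13.6% and TGACG in 20.9% of the 32544 windows of this length. GCGGGGGCG stood in the windows of Fosb, at -50 to -42, and Fosl2, at -79 to -71, and in 2.93% of all windows. It overlaps GGGCGG, the GC box, present in 35.9% of windows. The GC content of the Fosb window was above that of 87.9% of all windows, and that of the Fosl2 window above 80.9%. The 2.93% is not matched for GC content. None of the 7 genes' windows held TGACGTCA (1.80% of all windows), TGAGTCA (5.19%) or GCGTGGGCG (0.618%), which says only that these letters are not in these bases. TGACATCA stood in the Jun window, at -45 to -38, and in 3.37% of all windows. A CArG box stood in 4 of the 5 windows of Egr2 and in 1.64% of all windows. Windows 3, 4 and 5 of Egr2 overlap one another and share the same box, CCATATATGG, while window 2 held CCTTTTTTGG. The 4 of 5 therefore counts 1 box repeatedly and is not a share to set beside 1.64%. The RefSeq start of Fosl2 lies 671 bases downstream of the start of the gene in the deposited table, and that of Jund at -1210 bases from it.

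Short-lived early gene mRNAs commonly carry AU-rich elements in the 3′ untranslated region, where decay factors bind. In GENCODE M21 the nonamer TTATTTATT occurred in the 3′ untranslated regions of Fos and Fosl2, the members called with opposite signs, and in those of 7.98% of 19757 protein-coding genes. The sites are given with 8 flanking bases on each side, capitals marking the nonamer.
Fos: ttttcaatTTATTTATTaagatgga
Fosl2: ttattttaTTATTTATTttaaatgt
The Fos site begins 658 bases after the stop codon and the Fosl2 site 3695 bases after it. The pentamer ATTTA was denser than the median of 1.34 per kilobase in 9 of the 10 members, with 4.89 per kilobase in Fos, 4.10 in Junb and 3.24 in Jun. Fosb, at 0.466 per kilobase, was the exception. The longest coding transcripts of Jun, Junb and Jund had 1 exon each, those of the Egr genes 2 and those of the Fos family 4.

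The Jun family provides the obligate AP-1 partners. Jun is the strong activator of the family and is raised by JNK signalling, Junb often restrains Jun, and Jund is the more steadily expressed member. None of the 3 passed the test in edgeR, and at an unadjusted p under 0.05, in DESeq2 and in limma-voom the count was also 0. Jun was at 258 CPM in WT 3, 186 in WT 6 and 228 in WT 7, and at 177 CPM in KO 1, 220 in KO 2 and 310 in KO 3. The lowest and the highest of the 6 values were both KO libraries. The fold change of 1.05 had an interval of 0.728 to 1.52 (adjusted p = 0.824 in edgeR), and its sign turned without WT 6 or KO 3.

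Junb was at 39.5 CPM in WT 3, 37.3 in WT 6 and 70.0 in WT 7 and at 52.5 CPM in KO 1, 39.2 in KO 2 and 59.6 in KO 3. The KO values lay inside the WT range. Its fold change of 1.03 had an interval of 0.656 to 1.62, with an adjusted p of 0.917 in edgeR. Its annotated span shares 351 bases with Prdx2 on the opposite strand, a peroxidase gene whose mean count was 1106% of that of Junb. Whether the counting used strand is not given in the sources used here, so reads in the shared bases cannot be assigned, and their number was not measured. Junos, antisense to Jun, had 0.821% of the mean count of Jun, and Gm11175, antisense to Jund, had 0 reads.

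Jund was at 82.7 CPM in WT 3, 75.0 in WT 6 and 73.9 in WT 7, the tightest set of values of any member in WT. In KO it was at 56.7 CPM in KO 1, 55.9 in KO 2 and 102 in KO 3. KO 1 and KO 2 were below, and KO 3 above, every WT library. The fold change of KO over WT had an interval of 0.626 to 1.38 and an adjusted p of 0.757 in edgeR. Without KO 3 the log2 fold change was -0.44 with an adjusted p of 0.0367, so that library decided the outcome. The Jun family total was 135 ± 18.2 FPKM in WT and 141 ± 38.7 FPKM in KO (SD, n = 3 each), and Jun supplied 50.8 ± 3.41% of it in WT and 53.2 ± 4.17% in KO.

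The Egr family was led by Egr1 in both groups. Egr3, an Egr factor induced through MAP kinase signalling in neurons, lies on chromosome 14 from 70077203 to 70082614 on the forward strand. It was at 7.01 CPM in WT 3, 3.92 in WT 6 and 4.78 in WT 7, and at 31.6 CPM in KO 1, 25.4 in KO 2 and 41.0 in KO 3. The lowest KO library was well above the highest WT library. The mean rose from 5.24 ± 1.60 CPM to 32.7 ± 7.85 CPM (SD, n = 3 each), a 6.25-fold difference with an interval of 3.91 to 9.98 and an adjusted p of 0.00197 in edgeR. The size of this change was above that of 96.9% of tested genes, and the call held in all 14 alternatives, with adjusted p from 1.14e-17 to 0.0106.

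Egr1, the most widely used early gene reporter of the family, was at 500 CPM in WT 3, 200 in WT 6 and 317 in WT 7. In KO it was at 524 CPM in KO 1, 593 in KO 2 and 868 in KO 3. The groups did not overlap, but WT 3 was only just below KO 1. The means were 339 ± 152 and 662 ± 182 CPM (SD, n = 3 each), a fold change of 1.95 with an interval of 1.10 to 3.47 and an adjusted p of 0.0771 in edgeR, which did not pass. Without WT 3 the log2 fold change was 1.36 with an adjusted p of 0.00969. DESeq2 gave an adjusted p of 0.0163, limma-voom 0.00782 and edgeR without an expression filter 0.0219. Egr1 was therefore past the threshold by some tools and not by others, with log2 fold changes of 0.97 to 1.32 over these tools.

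Egr2, known above all for hindbrain patterning and myelination by Schwann cells, was at 7.24 CPM in WT 3, 13 in WT 6 and 28.2 in WT 7 and at 8.76 CPM in KO 1, 8.85 in KO 2 and 17.2 in KO 3. It was the one member that was lowest in WT 3. The groups overlapped, the interval of the fold ran from 0.309 to 1.67, and the adjusted p was 0.503 in edgeR. Its sign turned without WT 7. Egr2 was at 2.11 ± 0.29% of the family's FPKM in KO and 6.66 ± 4.37% in WT, while Egr3 was at 4.75 ± 0.81% in KO and 1.51 ± 0.25% in WT. The Schwann cell and neural crest markers summed to 11.5 to 17.9 CPM in WT and 58.6 to 67.6 CPM in KO, and their part in the Egr2 levels was not tested. The Egr family total was 80.3 ± 35.0 FPKM in WT and 161 ± 42.2 FPKM in KO (SD, n = 3 each), with no overlap between libraries of the groups. Egr1 supplied 91.8 ± 4.42% of it in WT and 93.1 ± 0.87% in KO, so the total mostly restates Egr1, which did not pass. The closest libraries were WT 3 at 117 FPKM and KO 1 at 131 FPKM. Of single tested genes, 23.5% had every KO library above every WT library.

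A ratio of 2 members within a library does not depend on the library total. Egr1 over Fos, in FPKM, was 0.985 in WT 3, 0.579 in WT 6 and 0.557 in WT 7, and it was 2.07 in KO 1, 2.36 in KO 2 and 2.44 in KO 3. Egr1 was thus below Fos in each WT library and above it in each KO library. Fosl2 over Fos was 0.0508, 0.0329 and 0.0233 in the WT libraries and 0.208, 0.134 and 0.144 in the KO libraries, in the same order. Egr3 over Egr1 was 0.0143, 0.0200 and 0.0154 in WT and 0.0613, 0.0436 and 0.0481 in KO. None of these 3 ratios overlapped between groups, and all 3 were chosen after the levels were seen. Junb over Jun, in contrast, averaged 0.305 ± 0.109 in WT and 0.309 ± 0.0899 in KO (SD, n = 3 each), with the groups overlapping. With 3 libraries a side the exact permutation test cannot go below p = 0.1, and no ratio was tested.

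**Figure D3:**
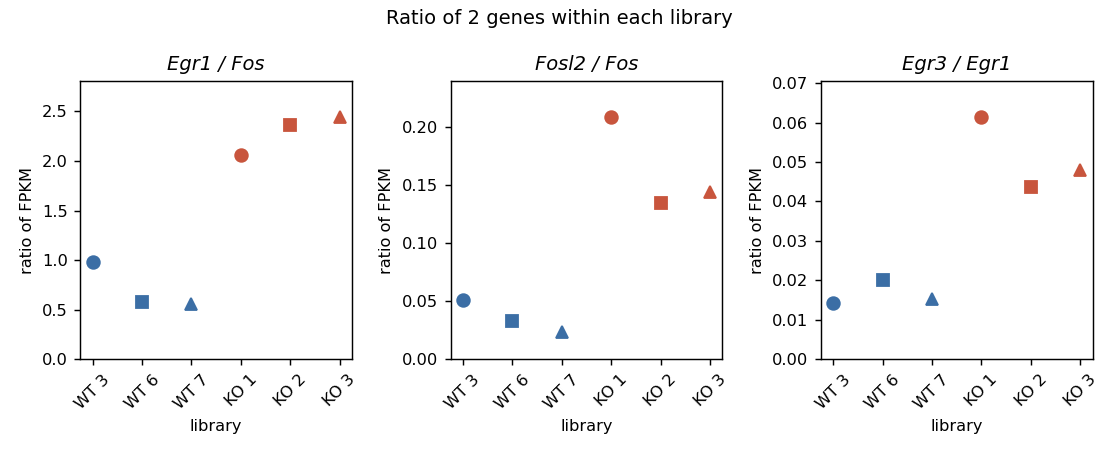
Ratio of the FPKM of 2 genes (linear axis from 0) within each library, WT in blue and KO in red. The 3 KO libraries lie above the 3 WT libraries in each panel, at 2.07 to 2.44 against 0.557 to 0.985 for Egr1 over Fos.

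The members tended to be high or low together within a group. WT 3 was the highest WT library for 7 of the 10 members, while it was so for 40.6% of all tested genes, and WT 6 was the lowest for 8 of 10, against 27.5% of all tested genes. Among KO libraries, KO 3 was the highest for 8 of 10 (36.0% of tested genes) and KO 2 the lowest for 7 of 10 (30.4%). The other immediate early genes, described next, gave WT 3 as highest in 23 of 28 and WT 6 as lowest in 22 of 28. Their KO pattern was less marked, with KO 3 highest in 15 of 28, and KO 1 and KO 2 each lowest in 12 of 28. The spread within groups was above the median of tested genes for all 10 members, with a median of 0.400 on the log2 scale against 0.256. The members share libraries and are not independent, so these counts describe the 6 libraries.

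**Figure D4:**
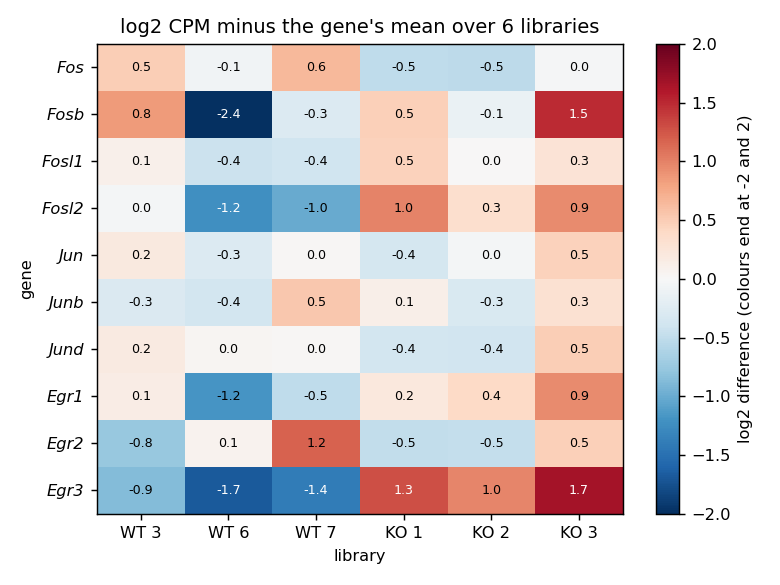
Log2 CPM of each gene in each library minus its mean over the 6 libraries, in red where above and blue where below, with values in log2 units. WT 6 is negative or near 0 for most genes and KO 3 is at or above 0, and the rows of Egr3 and Fosl2 separate WT from KO.

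The profile across the 6 libraries was compared between members by the distance of centred log2 CPM values. Jun and Jund were nearest to each other among members (distance 0.471), as were Fosl2 and Egr1 (0.941). Egr3 was nearest to Fosl2 (1.44), Fosb to Egr1 (1.64) and Fos to Jund (0.901). Many protein-coding genes outside the members lay nearer than the nearest member. Their number was 251 for Jun, 223 for Jund, 409 for Fosl2, 365 for Egr1, 311 for Egr3, 59 for Fosb and 2381 for Fos. The member pairs are thus not close against other genes. Among 12461 other protein-coding genes, those closest to Egr1 were Ier2 (0.214), Alkbh2 (0.241) and Sh3bp1 (0.306), and those closest to Jun were Med31 (0.157), Wtip (0.179) and Ppp1r15a (0.201). Fos was closest to Smad3 (0.290), Iffo1 (0.294) and 1700029J07Rik (0.301), and Fosl1 to Pip4k2b (0.0843), Lonrf1 (0.0882) and Dab2ip (0.117). These distances are descriptions over 6 libraries of the same 2 groups.

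Other immediate early genes are induced by the same stimuli. Of 28 such genes, all tested, 13 rose in KO and 0 fell in edgeR (46.4% called, against 13.5% of all tested genes called as higher), and their median log2 fold change was 0.93. At an unadjusted p under 0.05 1 gene was lower, Btg2, an antiproliferative factor of neural progenitors, at 154 ± 29.6 CPM in WT and 88.8 ± 35.5 in KO (SD, n = 3 each, adjusted p = 0.0802 in edgeR). Btg2 was called lower by DESeq2 and limma-voom. Arc, a postsynaptic protein whose mRNA marks recent neuronal activity, had the lowest p of the list. It rose from 5.12 ± 1.38 CPM to 47.5 ± 18.6 CPM, a log2 fold change of 3.21 (adjusted p = 0.00242 in edgeR). The kinase gene Plk2 rose from 56.7 ± 10.3 to 171 ± 32.4 CPM, Trib1, a pseudokinase gene, from 21.4 ± 3.67 to 57.3 ± 10.8 CPM, and Klf6, a zinc finger factor, from 41.0 ± 6.59 to 101 ± 21.0 CPM (adjusted p of 0.00246, 0.00334 and 0.00406 in edgeR). The count of 13 was 6 without WT 6 and 7 without WT 7. Each of these 4 risers had KO libraries above all WT libraries, as had Egr3 and Fosl2 and 23.5% of all tested genes. The 4 were named for having the lowest p of the list, which favours such a separation. Over the whole list the groups did not overlap for 17 of 28 genes, beside 48.6% of all tested genes.

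**Figure D5:**
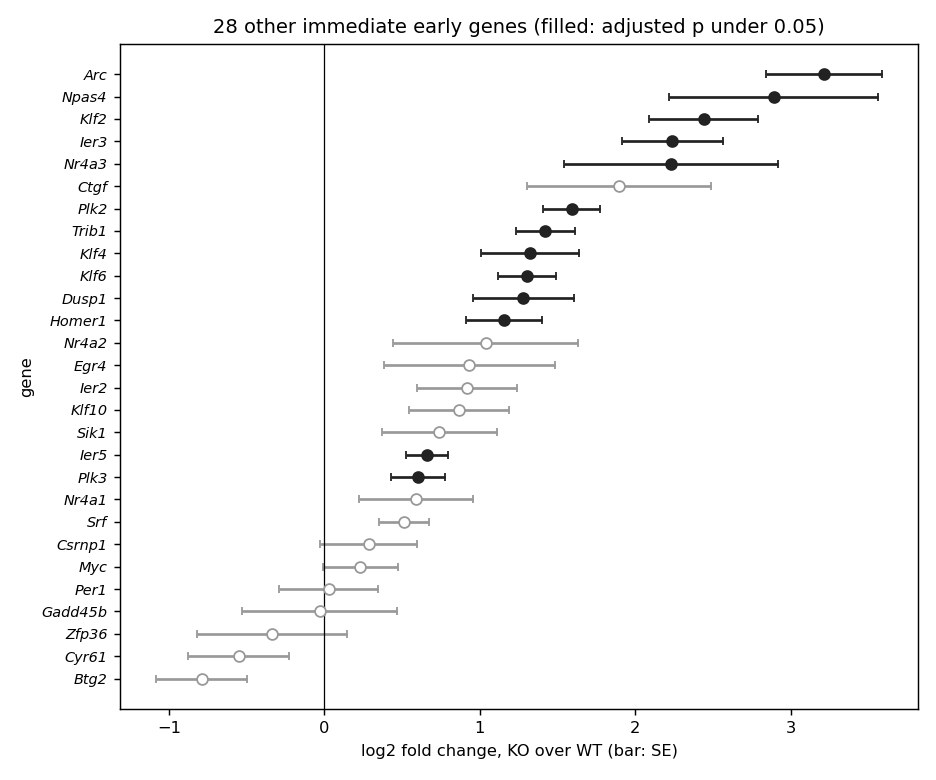
Log2 fold change of KO over WT of the 28 other immediate early genes, with SE bars from the edgeR fit, filled where the adjusted p was under 0.05. The 13 called genes all lie to the right of 0, led by Arc at 3.21, and Btg2 has the lowest value at -0.79.

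The partners and brakes of these factors were measured too. Both Egr corepressors rose, Nab1 from 31.5 ± 2.44 to 52.8 ± 0.82 CPM and Nab2 from 30.7 ± 4.99 to 57.6 ± 11.3 CPM (SD, n = 3 each, adjusted p = 0.00422 and 0.0130 in edgeR). NAB proteins bind Egr factors and repress their targets, and Nab2 is itself induced by Egr1. The call of Nab2 was lost without WT 6 (adjusted p = 0.0565). Of 14 further AP-1 dimer partners of the Atf, Batf, Jdp and Maf families, 12 were tested, of which 2 rose and 2 fell. The 33.3% called are close to the share of all tested genes, 29%. Atf4, the central factor of the amino acid response, rose from 129 ± 12.3 to 206 ± 7.69 CPM, and the stress-induced Atf3 from 1.94 ± 0.22 to 3.88 ± 0.29 CPM. Maf, a large Maf factor, fell from 59.9 ± 8.16 to 16.0 ± 5.36 CPM, and Atf7 from 79.0 ± 6.17 to 45.5 ± 2.71 CPM. The adjusted p-values in edgeR were 0.00553, 0.0249, 0.00409 and 0.00349 in that order. The call of Atf3 was lost without WT 6, WT 7, KO 1, KO 2 or KO 3, and without an expression filter, with adjusted p from 0.0510 to 0.106.

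The factors and kinases that switch these genes on came from 2 lists. Among 11 transcription factors upstream of early genes (SRF, its cofactors and CREB), 0 were called by edgeR, 2 had an unadjusted p under 0.05, DESeq2 called 1 and limma-voom 3. Srf itself, which binds the CArG box, averaged 35.1 ± 6.83 CPM in the WT libraries and 50.1 ± 3.95 CPM in the KO libraries (SD, n = 3 each, adjusted p = 0.0531 in edgeR). Of 19 genes of the Ras, ERK and JNK cascade 6 rose and 2 fell (42.1% called, against 29% of all tested genes). Hras rose from 45.7 ± 2.11 to 74.1 ± 4.26 CPM (adjusted p = 0.00408 in edgeR), and the neural JNK gene Mapk10 from 23.2 ± 7.53 to 57.8 ± 13.6 CPM (0.0136 in edgeR). Map2k7, a kinase that activates JNK, fell from 81.5 ± 4.23 to 52.4 ± 7.63 CPM (0.0126 in edgeR), and Rps6ka2, an ERK-regulated kinase gene, from 49.6 ± 2.84 to 34.1 ± 4.06 CPM (0.0216 in edgeR). The 8 calls of this list became 5 without WT 3, 2 without WT 6 or WT 7, 4 without KO 1 and 1 without KO 2. These are transcript levels, and phosphorylation was not measured.

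Downstream of AP-1, 15 genes known from other tissues as targets were listed and 12 tested, of which 6 rose and 0 fell. The share called was 50%, against 29% of all tested genes, and the median log2 fold change was 1.83. At an unadjusted p under 0.05 the number lower was also 0, as it was in DESeq2 and limma-voom. Ccnd1, the D-type cyclin that drives entry into S phase, rose from 35.6 ± 1.44 to 752 ± 156 CPM (SD, n = 3 each, adjusted p = 0.000324 in edgeR). The EGF receptor ligand Areg and the urokinase receptor Plaur also rose, and both averaged under 0.2 CPM in WT, around or under the level of 3 reads, and 1.27 ± 0.22 and 1.62 ± 0.41 CPM in KO. Cd44, a surface glycoprotein, was at 17.1 ± 9.38 and 44.6 ± 13.2 CPM (adjusted p = 0.0534 in edgeR) and was called by DESeq2 and limma-voom. These genes also answer to other factors, and binding of AP-1 was not measured here.

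Factors that control the decay of AU-rich mRNAs were split, with 66.7% called against 29% of all tested genes. Of 6, Hnrnpd and Elavl1 (HuR) rose, Hnrnpd from 178 ± 10.8 to 295 ± 51.1 CPM and Elavl1 from 80.7 ± 4.0 to 111 ± 14.2 CPM (SD, n = 3 each). Zfp36l1 fell from 158 ± 13.4 to 70.2 ± 25.9 CPM and Zfp36l2 from 136 ± 44.3 to 75.8 ± 9.22 CPM. The adjusted p-values in edgeR were 0.0120, 0.0298, 0.0155 and 0.0403. Khsrp and Zfp36 were not called (adjusted p = 0.567 and 0.617 in edgeR). The 4 calls became 2 without WT 6 or KO 1, and 1 without WT 7 or KO 2. Half-lives were not measured.

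Several other groups of genes moved together with the early genes, and their part in the results above was not tested. Among 12 heat shock and handling stress genes 7 rose and 0 fell in edgeR (58.3% called, against 29% of all tested genes). Their sum was 2775 to 3030 CPM in WT and 4255 to 4970 CPM in KO. Their count was 3 when WT 6, WT 7 or KO 2 was left out, and the number lower at an unadjusted p under 0.05 was 0 in edgeR, 0 in DESeq2 and 1 by adjusted p in limma-voom. The chaperonin gene Hspd1 rose from 253 ± 10.9 to 605 ± 83.2 CPM, and Hsp90aa1 from 429 ± 52.7 to 831 ± 57.6 CPM (SD, n = 3 each, adjusted p = 0.00197 and 0.00424 in edgeR). Hspa1a, Hspa1b, Hspb1, Bag3 and Dnaja1 were not called (adjusted p from 0.0822 to 0.803 in edgeR). Bag3 averaged 25.4 ± 11.4 CPM in WT and 16.6 ± 1.65 CPM in KO. Neuron markers summed to 1410 to 2507 CPM in WT and 2502 to 3681 CPM in KO, and WT 3 held the highest WT sum. Of these markers, 2 of 8 were called as higher (25%, against 13.5% of all tested genes). Mural and meningeal markers summed to 87.2 to 126 CPM in WT and 149 to 451 CPM in KO, KO 1 being the highest. Here too 2 of 8 were called as higher (25%, against 13.5% of all tested genes). Astrocyte markers summed to 2457 to 7970 CPM in WT and 1137 to 2011 CPM in KO, and oligodendrocyte markers to 3824 to 4566 and 1114 to 2043 CPM. In the astrocyte and the oligodendrocyte list 6 of 8 each were called as lower (75%, against 15.5% of all tested genes). Markers of microglia reached at most 5.82 CPM in WT and 17.1 CPM in KO, those of endothelium at most 7.48 CPM in any library, and those of red blood cells at most 1.03 CPM, 1 of the 6 being at 0 in every library.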

How the data were processed

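Spheres labelled as dorsal cortex (the growth protocol names the lateral ventricle walls) were sequenced as 6 libraries, grouped by genotype and numbered from their titles. Tools listed in the submitters' processing notes are DESeq2 1.16.1, HISAT2 2.0.5 and featureCounts 1.5.0-p3, with the build mm10. Neither settings nor strandedness are stated there. Deposited were whole-number read counts per gene, not normalised by the authors per the file headers, and FPKM that the authors made from gene length and library total. FPKM gave back the counts to within 0.5 reads for all 10 genes.

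All 6 libraries entered 1 fit without covariates, KO against WT, in edgeR 4.0.16 in R 4.3.3 (TMM, filterByExpr defaults, quasi-likelihood F test, two-sided, Benjamini-Hochberg over 16606 genes, threshold 0.05). The SE is the absolute log2 fold change divided by the square root of F, and intervals are at 95% and unadjusted. The common biological coefficient of variation was 26.5%. The procedure was tested on simulated data. Alternatives were other scalings and filters, DESeq2 1.42.0, limma 3.58.1 (voom with quality weights, and log2(FPKM + 1) or log2(FPKM + 0.1)), and leaving out each library. The members and gene lists were chosen with earlier results of these data known, so no list was tested as a set. Named genes were all members, up to 4 genes of each list with the lowest p and 2 with the highest level. The nearest profiles, overlapping genes, Ash2l, Zfp36 and the heat shock genes not called were named too. Genes of each list were given only in part. A gene taken for naming is not reported here, and list counts include it. Profile distances are Euclidean, over log2 CPM with a prior count of 2 and genes of at least 2 CPM. Promoter windows came from RefSeq (GRCm38.p6) and untranslated regions from GENCODE M21. Totals per library were 16764480 to 21983659 counts.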

Additional observations from a re-analysis of the deposited data

How the results depend on the processing

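Egr3 kept its direction and its call under all 14 alternatives (log2 fold change 1.97 to 2.91). Of 140 member values under alternatives, 114 kept direction and side of the threshold. Across the runs that left out 1 library, 2178 to 6641 genes were called in all, 1 to 4 members (1 to 3 higher), and among the lists 6 to 18 other immediate early genes, 3 to 5 dimer partners, 1 to 2 Egr corepressors, 0 to 2 upstream factors, 1 to 8 Ras, ERK and JNK genes, 1 to 4 decay factors and 3 to 8 heat shock genes. The log2 fold changes in these runs ran from -0.91 to -0.58 for Fos, 0.31 to 1.76 for Fosb, 0.39 to 0.68 for Fosl1, 1.23 to 1.90 for Fosl2, -0.16 to 0.27 for Jun, -0.12 to 0.39 for Junb, -0.44 to 0.060 for Jund, 0.69 to 1.36 for Egr1, -0.86 to 0.19 for Egr2 and 2.46 to 2.91 for Egr3. The sign turned for Jun without WT 6 (-0.05) and KO 3 (-0.16), for Junb without WT 3 (-0.09), WT 6 (-0.12) and KO 3 (-0.08), for Jund without KO 1 (0.060) and KO 2 (0.05), for Egr2 without WT 7 (0.19), for Nras without KO 1 (0.0035, lowest in these runs -0.22) and for Khsrp without KO 3 (-0.0057, highest 0.28), where fewer libraries were fitted.

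Limma-voom with quality weights, which gives libraries unequal weight, called 8052 genes, 5 members (all 5 higher), 20 other immediate early genes, 7 dimer partners and 3 upstream factors. Its log2 fold changes were 1.93 for Fosb, 0.60 for Fosl1 and 1.32 for Egr1, all now past the threshold, -0.61 for Fos, no longer past it, and -0.031 for Khsrp, with the sign turned. Fos also missed the threshold with library totals (-0.67), log2(FPKM + 1) (-0.64) and log2(FPKM + 0.1) (-0.65), while Egr1 passed it in DESeq2 (0.98) and without an expression filter (0.97). RLE size factors, DESeq2 and both FPKM scales each called 1 upstream factor. The cause of these differences was not tested. No paired analysis was possible because the groups share only replicate number 3. Depth did not limit the detection of any member, and the spread between libraries set the precision.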
